A study of Mus musculus with 12 samples.

Results

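Grhl3, Tfcp2l1, Pkp2, Perp, Anxa8 and Palm3 are 6 mouse genes best known from epithelia: a pair of grainyhead-family transcription factors, a desmosomal plaque protein, a tetraspan desmosomal membrane protein, an annexin and a paralemmin. They are 6 of the 32248 rows of a gene count table from OCY454 cells, an osteocyte-like mouse line made conditionally immortal by a temperature-sensitive large T antigen, and they were picked by name because they had been seen to shift in these cells. Their levels and their differences between groups are therefore given as a description, without a test. The study compared wild-type (WT) cells with a Piezo1 knock-out (KO) line in which exons 19 to 21 of Piezo1, the gene of a stretch-gated cation channel, had been removed with CRISPR-Cas9, and it asked what the channel does in osteocyte differentiation. Both lines were grown at 33 °C in alpha-MEM with 10% fetal bovine serum and 1% antibiotic-antimycotic and then moved to 37 °C, the differentiating temperature, for 1 day (called basal), 14 days or 28 days. Each of the 6 groups (WT and KO at day 1, day 14 and day 28) has 2 libraries of polyadenylated RNA. The number of KO clones is not given in the sources used here, and nothing says that the 2 libraries of a group came from separate cultures, so their spread may be technical and a p-value measures that spread alone.

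Grainyhead factors are needed for the epidermal barrier and for neural tube closure, and Grhl3 is the member best known for terminal differentiation of the epidermis. Tfcp2l1 belongs to the CP2 branch of the same family and is known from renal and salivary duct epithelium and from pluripotent cells. Desmosomes join neighbouring epithelial or cardiac cells by linking desmosomal cadherins through plakoglobin, plakophilins such as Pkp2, and desmoplakin to intermediate filaments. Perp, a p53 and p63 target, is a membrane protein that desmosomes of stratified epithelia need. Annexins bind membranes when calcium rises, and paralemmins are membrane-anchored proteins tied to plasma membrane shape. Cells of the osteoblast lineage are mesenchymal and connect mainly through N-cadherin (Cdh2) and cadherin 11 (Cdh11).

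The upstream promoter of 4 of the 6 genes, the 250 bases before the transcription start, is shown because members of both grainyhead branches are among the 6. A reader can thus see which letters known for these factors are present. Whether either factor acts on any of these genes was not tested. The sequences are from RefSeq (GRCm38.p6) and read 5′ to 3′ on the strand of the gene: Grhl3 at chr4:135573633-135573882 (minus strand), Tfcp2l1 at chr1:118627695-118627944 (plus), Anxa8 at chr14:34085729-34085978 (plus) and Palm3 at chr8:84021224-84021473 (plus). Capitals mark matches, on either strand, to the E-box CAGGTG read by Snail and Zeb repressors, the TATA box TATAAA and the CP2 paired half-site, which is CCAG repeated after 6 free bases.
Grhl3: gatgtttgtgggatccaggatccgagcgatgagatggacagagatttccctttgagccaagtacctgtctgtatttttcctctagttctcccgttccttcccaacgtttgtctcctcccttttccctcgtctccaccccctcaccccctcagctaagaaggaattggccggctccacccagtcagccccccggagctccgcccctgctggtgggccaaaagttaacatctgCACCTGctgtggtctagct
Tfcp2l1: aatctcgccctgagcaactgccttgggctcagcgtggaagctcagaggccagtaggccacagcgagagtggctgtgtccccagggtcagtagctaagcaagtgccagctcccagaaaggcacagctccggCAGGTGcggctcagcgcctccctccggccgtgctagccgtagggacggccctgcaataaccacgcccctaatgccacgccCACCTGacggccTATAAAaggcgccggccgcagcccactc
Anxa8: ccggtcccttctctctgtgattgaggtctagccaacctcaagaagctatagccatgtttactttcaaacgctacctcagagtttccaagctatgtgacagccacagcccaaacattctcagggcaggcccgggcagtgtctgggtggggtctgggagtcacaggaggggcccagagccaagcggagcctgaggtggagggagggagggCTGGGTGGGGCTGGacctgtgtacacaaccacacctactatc
Palm3: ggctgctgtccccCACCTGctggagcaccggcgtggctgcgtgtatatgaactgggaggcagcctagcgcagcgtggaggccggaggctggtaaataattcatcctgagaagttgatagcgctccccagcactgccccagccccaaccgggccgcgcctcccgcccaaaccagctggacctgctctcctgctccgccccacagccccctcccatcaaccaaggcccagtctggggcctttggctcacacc
The E-box was found once in Grhl3 (first base at -19 from the start site), at -120 and -40 in Tfcp2l1 and at -237 in Palm3. Of 32851 promoters of the same length, 17.2% hold it. Tfcp2l1 has a TATA box at -28 (12.4% of promoters hold these letters), and Anxa8 has the CP2 paired half-site at -42 (2.78% of promoters). The grainyhead site AACCGGTT, present in 0.116% of promoters, is not in any of the 4 windows. No marked match overlaps another. GC content is 56.0% for Grhl3, 65.2% for Tfcp2l1, 58.0% for Anxa8 and 66.0% for Palm3, against a median of 52.4% over all promoters.

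The 12 libraries held 8590132 to 15357433 counts each, and 13772 genes passed the filter on low counts, all 6 members among them. Levels are given in CPM, counts brought to one common library size, with the library totals scaled by TMM. The mean CPM of the Piezo1 row was 215 (WT) and 169 (KO) on day 1, 208 and 111 on day 14, and 238 and 278 on day 28; it counts the whole gene, so it says little about the removed exons. All 11 genes of a list of osteoblast and osteocyte markers were tested. Their summed level was 6306 to 18448 CPM in WT and 5473 to 34718 CPM in KO, led by Col1a1 and Col1a2. Group means were far lower for Pdpn (17.0 to 56.3 CPM), Dmp1 (4.57 to 14.0 CPM) and Phex (3.02 to 10.7 CPM). They were lower still for Bglap (1.40 to 5.25 CPM) and Mepe (0.840 to 1.52 CPM). The late osteocyte gene Sost stayed between 0.343 and 1.30 CPM in every library.

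All 6 genes averaged above 1 CPM in WT at every day. In KO, 3 of them did at day 1 (Grhl3, Pkp2 and Anxa8), 2 at day 14 (Grhl3 and Pkp2) and 3 at day 28 (Grhl3, Tfcp2l1 and Palm3). At day 1 the KO libraries lay above both WT libraries for 1 gene (Grhl3), below them for 4 and overlapped for 1 (Pkp2), where 73.2% of all genes tested do not overlap (35.8% higher and 37.4% lower in KO). At day 14, 5 genes were lower without overlap and Grhl3 overlapped, against 76.4% of all genes not overlapping (37.2% higher and 39.2% lower). At day 28, 5 were again lower and Palm3 overlapped, against 64.7% (31.9% higher and 32.8% lower). The genes were chosen from these contrasts, so nothing is read from their counts.

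**Figure D1:**
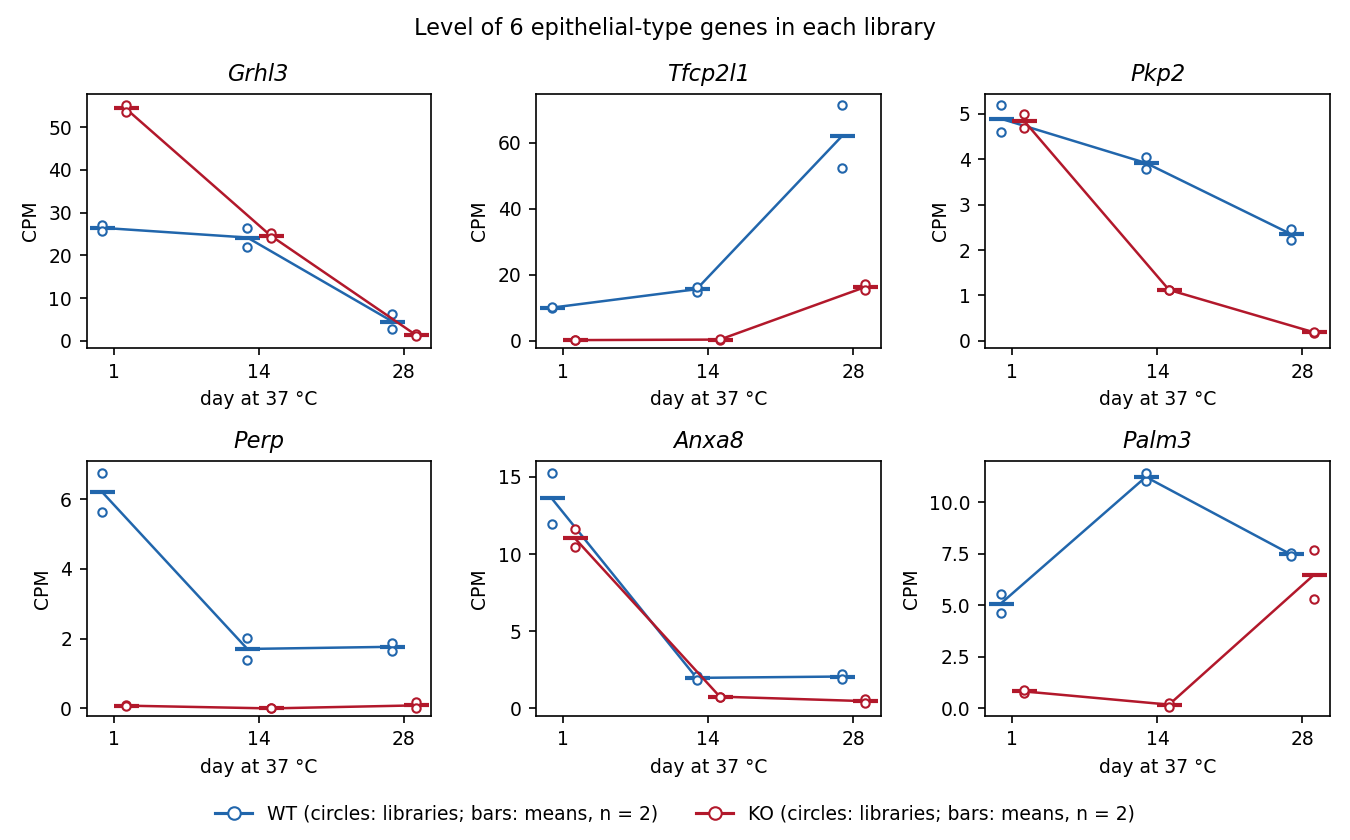
Level of each gene (CPM, linear axis with its own scale per gene) against days at 37 °C (equally spaced), for WT in blue and KO in red. Circles are single libraries, bars are the means of 2 libraries and lines join the means; Perp stays near 0 in KO, Palm3 and Tfcp2l1 are near 0 in KO until day 28, and Grhl3 starts highest in KO and ends lowest there.

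Grhl3 (ENSMUSG00000037188.7, chr4:135541888-135573630 on mm10, minus strand, 16 exons) had 417 and 393 counts in the WT libraries of day 1, 313 and 190 in those of day 14, and 91 and 33 in those of day 28. The KO libraries held 646 and 729 counts (day 1), 267 and 281 (day 14), and 19 and 18 (day 28). The means were 26.4 ± 0.935, 24.2 ± 3.11 and 4.54 ± 2.56 CPM in WT and 54.4 ± 1.09, 24.6 ± 0.787 and 1.43 ± 0.298 CPM in KO (SD, n = 2). Grhl3 was above WT in KO at day 1, overlapped it at day 14 and was below it at day 28. The difference, KO minus WT on the log2 scale, was 1.04 ± 0.14 at day 1, 0.02 ± 0.16 at day 14 (-0.03 when scaled by library totals alone) and -1.72 ± 0.33 at day 28. Each ± on a log2 value is an approximate standard error, the absolute value divided by the square root of the fit's F statistic. Where a group holds few counts it can be smaller than counting error alone, so it understates the uncertainty there. The 2 WT libraries of day 28 stood apart for this gene (6.35 and 2.72 CPM), and without the first of them the day 28 difference was -0.95. From highest to lowest the groups were KO day 1, WT day 1, KO day 14, WT day 14, WT day 28 and KO day 28, and the neighbours that overlapped were KO and WT at day 14.

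Between day 1 and day 28 Grhl3 moved by -2.50 ± 0.19 in WT (-3.27 without the first WT library of day 28) and by -5.26 ± 0.22 in KO. In WT nearly all of that came after day 14 (-0.12 ± 0.15 before and -2.38 ± 0.20 after). In KO it came in both intervals, at -1.14 ± 0.14 and -4.12 ± 0.25.

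Tfcp2l1 (ENSMUSG00000026380.10, chr1:118627945-118685168, plus strand, 15 exons in its longest transcript) ran the opposite way in time. WT libraries had 153 and 155 counts on day 1, 177 and 142 on day 14, and 752 and 865 on day 28. KO libraries had 4 and 2 counts on day 1, 4 and 5 on day 14, and 199 and 226 on day 28. The level in WT was 10.1 ± 0.158, 15.7 ± 1.07 and 61.9 ± 13.4 CPM, and in KO 0.244 ± 0.137, 0.403 ± 0.0361 and 16.3 ± 1.32 CPM (SD, n = 2). Every KO library was below every WT library of its day, and KO at day 28 overlapped WT at day 14, the only overlapping neighbours in the order of levels (WT day 28, KO day 28, WT day 14, WT day 1, KO day 14, KO day 1). The locus also spans 3 small noncoding or pseudogene entries of the annotation.

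The difference between the lines in Tfcp2l1 was -5.35 ± 0.36 at day 1, -5.24 ± 0.32 at day 14 and -1.93 ± 0.13 at day 28. The day 1 value rests on 6 counts in KO and was -5.99 without the first KO library of that day and -4.84 without the second. From day 1 to day 28 the level changed by 2.62 ± 0.14 in WT and by 6.04 ± 0.33 in KO (6.69 without the first KO library of day 1). In KO this change fell in the second interval (0.74 ± 0.79 before day 14 and 5.29 ± 0.31 after it), and in WT the second interval also held most of it (0.63 ± 0.16 and 1.98 ± 0.14).

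Pkp2 (ENSMUSG00000041957.15, chr16:16213318-16272712, plus strand) encodes plakophilin 2, the plaque protein of cardiac and simple epithelial desmosomes. Its WT libraries held 80 and 70 counts on day 1, 45 and 35 on day 14, and 32 and 30 on day 28, against 55 and 68, 12 and 13, and 2 and 3 in KO. The levels were 4.89 ± 0.429, 3.92 ± 0.181 and 2.35 ± 0.171 CPM in WT and 4.85 ± 0.215, 1.12 ± 0.0129 and 0.188 ± 0.0217 CPM in KO (SD, n = 2). The lines started level, with overlapping libraries, and drew apart at each later day. The difference was -0.01 ± 0.21 at day 1, -1.79 ± 0.31 at day 14 and -3.56 ± 0.45 at day 28, and the change from day 1 to day 28 was -1.06 ± 0.24 in WT and -4.60 ± 0.40 in KO. From highest to lowest the groups ran WT day 1, KO day 1, WT day 14, WT day 28, KO day 14 and KO day 28, and the first 2 were the only neighbours that overlapped.

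Perp (ENSMUSG00000019851.8, chr10:18845020-18857073, plus strand, 3 exons) was close to silent in KO at every day. WT libraries had 104 and 86 counts on day 1, 24 and 12 on day 14, and 27 and 20 on day 28, whereas KO libraries had 1 and 1, 0 and 0, and 2 and 0. WT levels were 6.20 ± 0.790, 1.70 ± 0.448 and 1.77 ± 0.165 CPM (SD, n = 2). At day 14 a count of 0 over the KO group allows up to 0.135 CPM (3 counts over the group). Perp was 78.5-fold lower in KO at day 1 (95% interval 21.4 to 653, counting error only), at least 13.0-fold lower at day 14 (3 counts over the group in place of 0) and 23.4-fold lower at day 28 (95% interval 6.12 to 199). The day 28 value rests on 2 counts in the first KO library: its fitted log2 difference of -4.37 became -3.28 without the second KO library and -7.50 without the first, where the KO library left has 0 counts and the fitted value is no bound. In WT it moved by -1.82 ± 0.32 up to day 14 and by 0.03 ± 0.38 after it, and WT at days 14 and 28 overlapped. The order of levels was WT day 1, WT day 28, WT day 14, and then KO at day 28, day 1 and day 14, of which the first 2 overlapped. No change in time is given for KO, where all 3 days were at or under 3 counts per group.

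Anxa8 (ENSMUSG00000021950.15, chr14:34085981-34100571, plus strand, 12 exons) encodes annexin A8, a calcium-dependent phospholipid-binding protein. Its WT libraries held 184 and 233 counts on day 1, 25 and 16 on day 14, and 32 and 23 on day 28. The KO libraries of the same days held 136 and 142, 8 and 9, and 7 and 5 counts. WT levels were 13.6 ± 2.35, 1.98 ± 0.181 and 2.06 ± 0.237 CPM and KO levels were 11.02 ± 0.827, 0.763 ± 0.0116 and 0.472 ± 0.188 CPM (SD, n = 2). The order was WT day 1, KO day 1, WT day 28, WT day 14, KO day 14 and KO day 28, and the WT libraries of days 28 and 14 were the only neighbours that overlapped. The change from day 1 to day 14 was -2.76 ± 0.23 in WT and -3.83 ± 0.28 in KO, and from day 14 to day 28 it was 0.06 ± 0.31 and -0.73 ± 0.52. The difference between the lines was -0.31 ± 0.17 at day 1, where the WT library with the lower level (12.0 CPM) lay just above the KO library with the higher one (11.6 CPM), then -1.37 ± 0.40 at day 14 and -2.16 ± 0.40 at day 28. Anxa8 lies across A630023A22Rik on the opposite strand; the annotation gives them no shared exonic base, and that gene had at most 1 count in a library.

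Palm3 (ENSMUSG00000047986.12, chr8:84021471-84030295, plus strand, 7 exons in its longest transcript) encodes paralemmin 3. WT libraries had 71 and 85 counts on day 1, 131 and 99 on day 14, and 108 and 90 on day 28, and KO libraries had 9 and 12, 3 and 1, and 89 and 78. WT levels were 5.09 ± 0.679, 11.2 ± 0.291 and 7.48 ± 0.0785 CPM and KO levels were 0.825 ± 0.0806, 0.184 ± 0.139 and 6.49 ± 1.70 CPM (SD, n = 2). Palm3 was thus low in KO at days 1 and 14. At day 28 the KO libraries (7.69 and 5.29 CPM) lay on either side of the WT libraries (7.42 and 7.53 CPM), and they also overlapped WT at day 1. The order was WT day 14, WT day 28, KO day 28, WT day 1, KO day 1 and KO day 14. The difference was -2.60 ± 0.31 at day 1, -5.89 ± 0.40 at day 14 and -0.22 ± 0.21 at day 28. The day 14 value rests on 4 counts in KO and was -6.88 without the first KO library of that day and -5.26 without the second. From day 14 to day 28 Palm3 moved by -0.58 ± 0.20 in WT and by 5.08 ± 0.43 in KO, and from day 1 to day 14 by 1.14 ± 0.20 and -2.15 ± 0.67. Palm3 shares 2 exonic bases with Il27ra on the opposite strand, and Il27ra had at most 4 counts in any library.

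**Figure D2:**
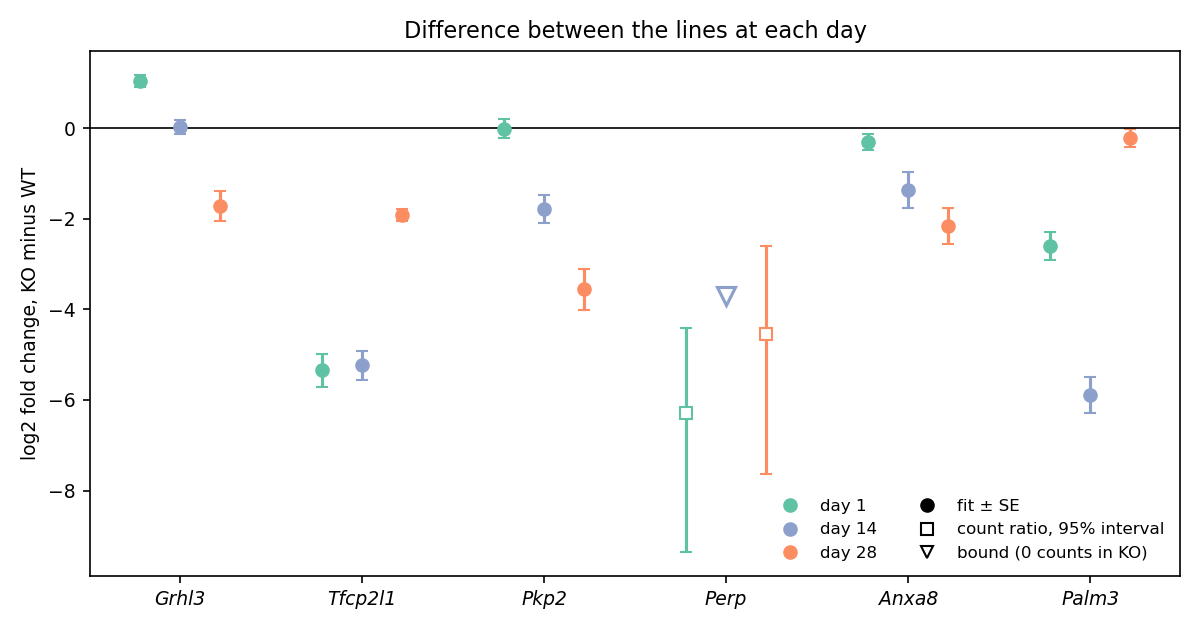
Difference between KO and WT (log2 fold change, y axis) for each gene (x axis) at day 1, day 14 and day 28. Filled circles are fitted values with approximate standard errors, which can be smaller than counting error where a group holds few counts. Open squares are count ratios with 95% intervals for counting error, and the open triangle is a bound. Pkp2 and Anxa8 lie lower at each later day, whereas Palm3 and Tfcp2l1 are nearest to 0 at day 28.

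The 6 genes followed different courses. Pkp2 and Anxa8 started within 0.31 of WT on the log2 scale and fell further behind it with time, Perp was low throughout, Tfcp2l1 and Palm3 were low until day 14 and far higher at day 28, and Grhl3 moved from above WT to below it. From day 1 to day 28, 2 genes were higher and 4 lower without overlap in WT (71.9% of all genes tested do not overlap, 35.6% higher and 36.3% lower). In KO 2 were higher, 3 lower and Perp overlapped (78.1% of all genes, 39.5% higher and 38.5% lower). The comparisons share the libraries of day 1 and day 28 with those between the lines, so they are not independent of them. In bulk RNA, fewer cells with a transcript and less transcript per cell cannot be told apart.

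Levels can be compared between genes only per length. In RPKM (CPM per kilobase of the union of annotated exons), WT at day 1 had Grhl3 at 9.48, Anxa8 at 7.24, Perp at 3.17, Palm3 at 1.41, Tfcp2l1 at 1.06 and Pkp2 at 0.913 RPKM. By day 28 the order in WT was Tfcp2l1 at 6.56, Palm3 at 2.07, Grhl3 at 1.63, Anxa8 at 1.10, Perp at 0.905 and Pkp2 at 0.439 RPKM. In KO, Grhl3 at 19.5 RPKM led at day 1, before Anxa8 at 5.86 RPKM. At day 28 Palm3 (1.80 RPKM) and Tfcp2l1 (1.72 RPKM) led in KO. Pkp2 was the lowest of the 6 per length in WT at each of these days, and the highest RPKM of all was that of Grhl3 in KO at day 1.

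Related genes were read from 6 lists and tested with edgeR's quasi-likelihood test, with Benjamini-Hochberg adjustment over all 13772 genes; a gene is called where its adjusted p is below 0.05. Of 82 epithelial regulators, desmosome, adherens and tight junction, keratin, annexin and paralemmin genes other than the 6 members, 39 were tested; 42 others were under the filter and Palm2 has no row in the table. At day 1, 8 were higher in KO and 10 lower (18 of 39, or 46.2%), where 40.3% of all genes were called (19.5% higher and 20.8% lower; scaled by library totals, 38.3% of called genes were higher in place of 48.4%). At day 14, 8 were higher and 13 lower (53.8%), against 49.7% of all genes (23.8% higher and 25.9% lower). At day 28, 6 were higher and 13 lower (48.7%), against 41.0% of all genes (19.8% higher and 21.2% lower), and scaling by library totals left 2 of the related genes higher and took the share of higher calls over all genes from 48.2% to 32.9%. The medians of the 39 genes were -0.04, -0.11 and -0.17 on the log2 scale, beside -0.01, -0.02 and -0.01 over all genes. The share called is near that of all genes at each day.

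Among 17 epithelial regulators, 8 were tested. Tfap2a, a transcription factor of surface ectoderm and neural crest, was higher in KO at each day, at 2.19 ± 0.20, 2.59 ± 0.25 and 2.81 ± 0.27 for days 1, 14 and 28 (adjusted p = 2.2e-08, 2.49e-08 and 4.02e-08); it had 40 and 37 counts in WT and 140 and 150 in KO at day 1. Trp63, the p63 gene that maintains stratified epithelia, was lower at each day, at -2.47 ± 0.60 (adjusted p = 0.00242), -1.62 ± 0.35 (adjusted p = 0.000621) and -1.80 ± 0.34 (adjusted p = 0.000212). Ehf, an epithelial Ets factor, was called higher at day 14 (3.14 ± 0.55, adjusted p = 6.31e-05) and stood at -0.39 ± 0.83 and -0.63 ± 0.83, without a call, at days 1 and 28 (the latter from -1.999 to 0.20 when 1 library was left out). Klf4 was lower at day 1 (-0.44 ± 0.11, adjusted p = 0.00292) and not called at day 14 (-0.08 ± 0.11) or day 28 (-0.20 ± 0.11). Of the close relatives of the members, Grhl1 was at 0.18 ± 0.27, 0.46 ± 0.31 and 0.62 ± 0.25, and its call at day 28 (adjusted p = 0.0493) was lost when any library was left out. Tfcp2 and Ubp1, the other CP2 factors, stayed between -0.09 and 0.24 at all days, with Tfcp2 called at day 28 (0.24 ± 0.09, adjusted p = 0.028; not called by DESeq2, with library totals, without the first WT library or without the second KO library of day 28). Grhl2, the grainyhead gene of simple epithelia, had 8 counts over all 12 libraries.

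Desmoplakin and the desmosomal cadherins were nearly absent. Dsp, the gene of desmoplakin, had at most 6 counts in a library. The desmosomal cadherins Dsg1b, Dsg3, Dsc1, Dsc2 and Dsc3 had 0 counts in all 12 libraries, and Dsg1a and Dsg2 had 1 count in total each, and the plakophilin Pkp3 had 4. Of 14 desmosome genes 4 were tested. Pkp1, the plakophilin of the epidermis, was lower in KO by -1.87 ± 0.47, -2.19 ± 0.29 and -1.77 ± 0.42 for days 1, 14 and 28 (adjusted p = 0.00324, 2.73e-06 and 0.00194; the last was -2.46 without the second KO library of day 28). Pkp4, which also sits at adherens junctions, was at -0.04 ± 0.07 at day 1 and was called higher on day 14 (0.44 ± 0.07) and day 28 (0.53 ± 0.07), with adjusted p = 3.88e-05 and 4.75e-06. Jup, plakoglobin, had 123 to 262 counts in each library and was at 0.16 ± 0.14, -0.10 ± 0.16 and -0.20 ± 0.15, with no call.

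Of 23 adherens and tight junction genes 12 were tested. At day 1, 1 was higher and 6 lower in KO, at day 14, 2 were higher and 5 lower, and at day 28, 0 were higher and 5 lower, with medians of -0.71, -0.50 and -0.26. The share called was 58.3%, 58.3% and 41.7% at these days, beside 40.3%, 49.7% and 41.0% of all genes. Ctnnd1, p120 catenin, was called higher at day 1 (0.27 ± 0.07, adjusted p = 0.00277; 0.23 and not called without the first KO library) and day 14 (0.42 ± 0.07, adjusted p = 2.42e-05). Cdh1, E-cadherin, had 42 and 54 counts in WT and 1 and 6 in KO on day 1, 43 and 36 against 12 and 5 on day 14, and 60 and 63 against 4 and 7 on day 28. Its difference was -3.46 ± 0.50 on day 1 (-2.79 and -5.04 without the first and the second KO library), -2.32 ± 0.42 on day 14 (-3.15 without the first KO library of day 14) and -3.45 ± 0.43 on day 28 (adjusted p = 1.03e-05, 0.000102 and 1.84e-06). Cdh3, P-cadherin, was at -1.36 ± 0.39 (adjusted p = 0.0087; not called without the second WT library, -1.29, or the second KO library of day 1, -1.003), -2.64 ± 0.56 (adjusted p = 0.000474; -3.84 and -1.95 without the first and the second KO library of day 14) and -2.61 ± 0.51 (adjusted p = 0.000346; -1.91 and -4.74 without the first and the second KO library of day 28).

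The tight junction genes that were called at all 3 days were lower as well. Cgn, the adaptor cingulin, was 12.1-fold lower at day 1 (95% interval 3.88 to 61.0, 44 counts against 3). Its KO libraries of that day had 0 and 3 counts, and the fitted log2 difference of -3.50 became -2.64 without the first and -7.18, which is no bound, without the second. Cgn was at -3.75 ± 0.49 (adjusted p = 2.04e-06) and -3.08 ± 0.47 (adjusted p = 2.43e-05) at days 14 and 28. F11r, junctional adhesion molecule A, was at -1.78 ± 0.16 (adjusted p = 1.09e-08), -1.60 ± 0.16 (adjusted p = 5.76e-08) and -1.59 ± 0.13 (adjusted p = 7.72e-09). Patj, a polarity scaffold, was at -1.09 ± 0.15, -1.41 ± 0.17 and -0.81 ± 0.15 (adjusted p = 9.21e-06, 8.81e-07 and 0.000248). Epcam had 7 counts over all 12 libraries. Among 12 keratins 3 were tested. Krt14, the basal keratinocyte keratin, was at -4.31 ± 0.29 (adjusted p = 2.44e-10), -3.42 ± 0.33 (adjusted p = 2.43e-08) and -3.59 ± 0.35 (adjusted p = 7.44e-08), from 232 and 230 counts in WT and 11 and 8 in KO at day 1. Krt80 was called lower at day 14 (-2.93 ± 0.32, adjusted p = 1.61e-07) and day 28 (-0.76 ± 0.26, adjusted p = 0.0246), the latter not without the first WT library (-0.62) or the second KO library (-0.44) of day 28, nor by DESeq2. Krt20, the third keratin tested, was not called, at 1.25 ± 0.59, -0.26 ± 0.70 and 0.92 ± 0.37 for days 1, 14 and 28 (adjusted p = 0.0509 at day 28).

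Of 16 annexin, S100 partner and paralemmin genes 12 were tested. At day 1, 6 were higher and 0 lower in KO, at day 14, 3 were higher and 3 lower, and at day 28, 2 were higher and 4 lower. The share called was 50% at each day, beside 40.3%, 49.7% and 41.0% of all genes. Anxa6 was at 0.49 ± 0.07 (adjusted p = 1.1e-05), 0.46 ± 0.07 (adjusted p = 1.82e-05) and 0.25 ± 0.07 (adjusted p = 0.00961), the last not called with library totals, without the second WT library (0.14) or without the first KO library (0.21) of day 28. Anxa3 was at 0.14 ± 0.08 at day 1, -0.37 ± 0.09 on day 14 (adjusted p = 0.00205; not called without the second WT library of that day, -0.27) and -1.26 ± 0.09 on day 28 (adjusted p = 1.3e-09). Anxa1 was at 0.22 ± 0.10, -0.44 ± 0.10 (adjusted p = 0.000794) and -0.50 ± 0.10 (adjusted p = 0.000417). S100a10, the partner of annexin A2, was at 0.44 ± 0.09 (adjusted p = 0.000315), 0.80 ± 0.09 (adjusted p = 1.65e-07) and -0.25 ± 0.09 (adjusted p = 0.0265; not called without the first WT library, -0.043, or the second KO library of day 28, -0.21), and S100a11, a partner of annexin A1, was at 0.62 ± 0.11 (adjusted p = 0.000135), 0.29 ± 0.12 and -0.17 ± 0.12. Palm, the paralemmin of brain, was at 0.04 ± 0.07, -0.26 ± 0.08 (adjusted p = 0.00879; not called without the first WT or the first KO library of day 14) and 0.12 ± 0.08.

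All 14 genes of a mesenchymal list were tested. At day 1, 5 were higher and 1 lower in KO, at day 14, 6 were higher and 3 lower (9 called, and 5 without the first KO library of day 14), and at day 28, 2 were higher and 6 lower. The share called was 42.9%, 64.3% and 57.1% at these days, beside 40.3%, 49.7% and 41.0% of all genes. Cdh11 was higher at each day, at 0.62 ± 0.08 (adjusted p = 2.09e-06), 0.62 ± 0.08 (adjusted p = 1.26e-06) and 0.37 ± 0.08 (adjusted p = 0.000762). Snai2, the repressor Slug, was at 0.16 ± 0.12, 0.52 ± 0.12 (adjusted p = 0.0016) and -0.89 ± 0.13 (adjusted p = 9.64e-06). S100a4 was at 1.17 ± 0.18 (adjusted p = 2.07e-05), -0.83 ± 0.23 (adjusted p = 0.00492; not called without the first WT or the first KO library of day 14) and -1.27 ± 0.23 (adjusted p = 0.000129; -0.58 without the first WT library of day 28). Twist2 was at least 7.71-fold higher in KO at day 28 (23 counts against 0, with 3 counts over the group in place of 0).

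**Figure D3:**
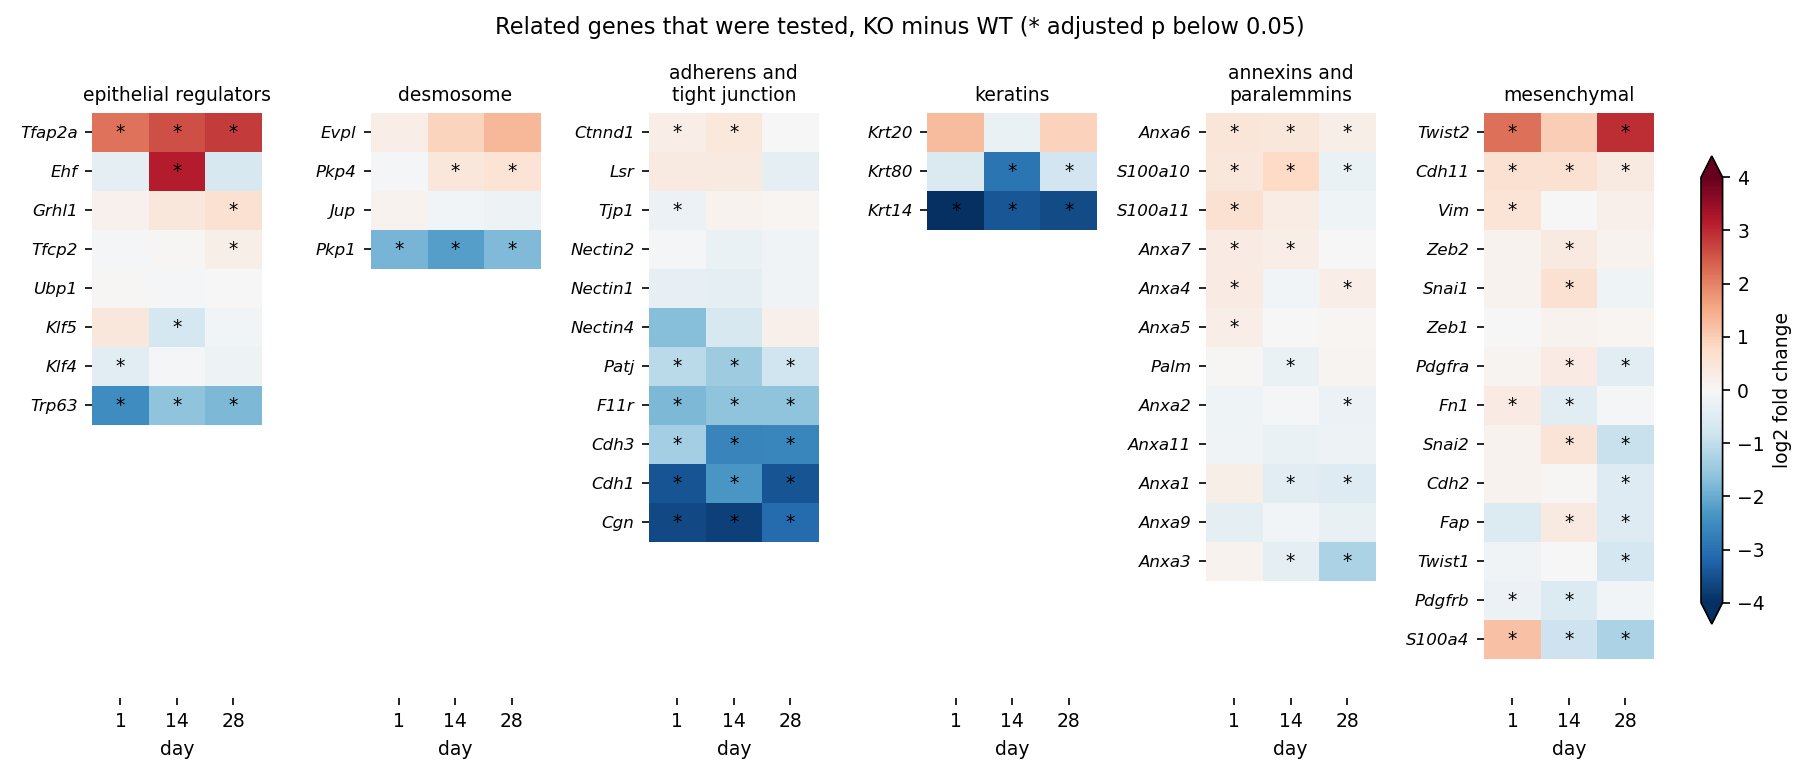
Difference between KO and WT (colour, log2 fold change from -4 to 4, arrows at the ends of the bar mark values beyond) for the tested genes of the 6 lists (y axis; 1 is not shown) at each day (x axis), with an asterisk where the adjusted p is below 0.05. Cgn at day 1 is drawn at its count ratio and Twist2 at day 28 at its bound; the low values gather in Trp63, Pkp1, Cdh1, Cdh3, Cgn, F11r, Patj and Krt14.

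Over time, 7 of the 39 related genes were called higher and 11 lower in WT from day 1 to day 28 (46.2%), against 48.0% of all genes (24.6% higher and 23.3% lower). In KO, 9 were higher and 16 lower (64.1%), against 55.5% of all genes (28.2% higher and 27.4% lower). The annexins and paralemmins held most of the genes that fell in KO, with 0 higher and 10 lower of 12, beside 0 and 5 in WT. The test of the difference between the lines in that change called 2 of the 39 higher (Pkp4 and the tight junction gene Tjp1) and 5 lower (17.9%), against 20.0% of all genes (10.6% higher and 9.48% lower). All 5 lower ones were annexins or their S100 partners, and Anxa3 had the lowest value (-1.40 ± 0.13, adjusted p = 1.29e-07). Of the 14 mesenchymal genes 0 were higher and 6 lower in the same test. These changes share their libraries with the comparisons of KO with WT.

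Markers of other cell types moved with the groups for some lists. Of 8 keratinocyte markers 3 were tested (Trp63, Krt14 and Sfn), and their summed level was 26.7 to 38.3 CPM in WT and 9.81 to 21.0 CPM in KO. Sfn was the highest of them in KO and was close between the lines outside day 14: its means in WT and KO were 19.8 and 17.4 CPM on day 1, 14.7 and 7.91 CPM on day 14, and 18.3 and 18.0 CPM on day 28. Krt14, by contrast, had means of 15.1 and 0.763 CPM on day 1. Dsg3 and Ivl of that list were at 0 in all 12 libraries. Of 8 simple epithelium markers 1 (Cdh1) was tested, with a summed level of 3.31 to 6.02 CPM in WT and 0.691 to 1.98 CPM in KO. Blood cell markers (4 of 6 tested) summed to 9.87 to 18.5 CPM in WT and 7.72 to 11.6 CPM in KO, and endothelial markers (4 of 5 tested) to 4.09 to 26.9 CPM in WT and 2.31 to 11.6 CPM in KO. Epithelial marker sums were thus lower in every KO library than in every WT library. Much of this gap came from Krt14 in the keratinocyte list and from Cdh1 in the simple epithelium list, so the sums do not stand for each marker. Of the 6 genes, Tfcp2l1, Perp and Anxa8 were lower in KO without overlap at each day, whereas Grhl3, Pkp2 and Palm3 were not. For Anxa8 at day 1 the margin was small, with 12.0 CPM in the lower WT library and 11.6 CPM in the higher KO library. Of all genes tested, 37.4%, 39.2% and 32.8% were lower without overlap at days 1, 14 and 28. The share at all 3 days together was not counted. The 6 genes were chosen from these contrasts, so nothing is read from this split. Trp63, Krt14 and Cdh1 stand in these lists and in the related lists alike. The part of other cells in the levels of the 6 genes was not tested.

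For each gene, the 3 genes with the closest profile were found by Pearson's r of log2 CPM over the 12 libraries, among 11808 genes with an average log2 CPM above 1. The points share 6 groups with 2 libraries each and their depth, so a high r mainly says that group means run in parallel, and it is given without a test. Grhl3 was closest to Cdh2, N-cadherin (r = 0.989), Bhlhb9 (0.989) and Nfatc4 (0.988). The Cdh2 means in WT and KO were 280 and 306 CPM on day 1, 264 and 272 CPM on day 14, and 146 and 102 CPM on day 28, a smaller range than that of Grhl3. Tfcp2l1 was closest to Rchy1 (0.990), Hsd17b1 (0.990) and Tmem245 (0.987). Pkp2 was closest to Homer1 (0.968), to Anxa3 (0.966), which is also in the annexin list, and to 1700008J07Rik (0.966).

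Perp was closest to Ddx19b (0.993), Bnip3l (0.982) and Dnmbp (0.979). The Ddx19b means for days 1, 14 and 28 were 40.6, 29.1 and 31.1 CPM in WT, against 13.3, 11.7 and 12.5 CPM in KO, so the shape was alike and the depth of the difference was not. Anxa8 was closest to Cdk6 (0.984), Ccdc122 (0.981) and Xpa (0.978), and Palm3 to Pak3 (0.984), Atp2b1 (0.984) and Snhg8 (0.980). The Pak3 means were 61.5, 68.5 and 64.3 CPM in WT, against 37.3, 27.4 and 63.5 CPM in KO, with its lowest level in KO at day 14 as for Palm3.

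**Figure D4:**
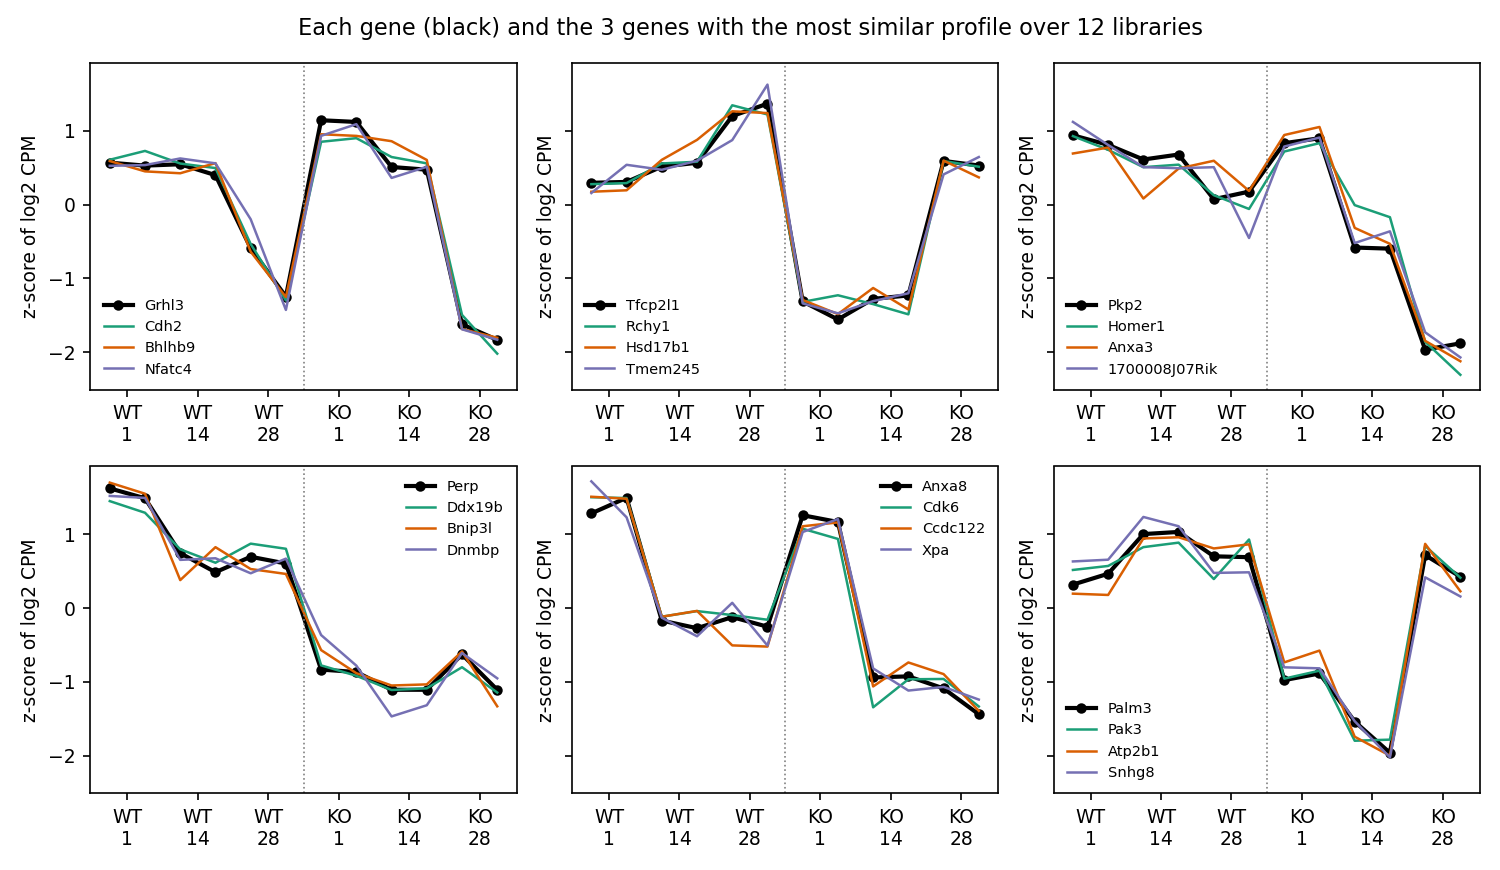
Profile of each gene (black) and of the 3 genes closest to it (colours) over the 12 libraries, ordered by line and day on the x axis; the y axis is the z-score of log2(CPM + 0.2), and lines only join points of one gene. Scaling to z-scores hides that the fold range of the black line is wider than that of the genes beside it for Cdh2, Ddx19b and Pak3.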

How the data were processed

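Polyadenylated RNA of 12 libraries was sequenced. The authors deposited 1 table of whole-number read counts per gene. The submitters' processing notes name STAR, featureCounts, Subread and edgeR with the build mm10; which versions, annotation and strand setting were used is not stated there. Of 32248 gene rows 9345 were 0 everywhere, and 3 transgene rows were kept out.

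The counts were filtered with filterByExpr (minimum count 10, minimum total 15), scaled by TMM (factors 0.942 to 1.05) and fitted with edgeR 4.0.16 in R 4.3.3, with 1 coefficient per group over all 12 libraries (6 residual degrees of freedom). The test was the two-sided quasi-likelihood test with Benjamini-Hochberg adjustment over 13772 genes at 0.05. Standard errors of log2 values were back-calculated from its F statistic and are approximate. The scripts were tested on simulated counts. Depth per library was 8590132 to 15357433 counts. Count ratio intervals are 95% and cover counting error only. Read counts without molecular identifiers are not independent molecules. The 6 genes, the related lists and the marker lists were chosen with earlier results of these data known. Named related genes were taken from the called ones with the 2 highest and 2 lowest log2 fold changes per list and comparison of KO with WT, and from the close relatives of the 6 genes. Not all that met this rule are described. Left out were Pdgfrb (lower in KO at days 1 and 14), Twist2 at day 1 (higher), Klf5 (lower) and Snai1 (higher) at day 14, and Anxa4 at day 28 (higher). The differences of several annexins are left out too. F11r, Patj, Jup, Tjp1, Krt20, Epcam and the other genes given only by low counts were chosen after their values were seen. Alternatives were a replicate block, DESeq2 1.42.0, library totals, other filters and leaving out each library. Gene positions are GENCODE M21, which matched 97.4% of rows, and promoters are RefSeq. Promoters of Pkp2 and Perp and protein sequences were not used here. The values of 1 related gene are not reported here.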

Additional observations from a re-analysis of the deposited data

Results flagged for a closer look

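The change from day 1 to day 28 differed between the lines for 10 of the related genes named above or below (edgeR's quasi-likelihood test of the difference, adjusted over all genes, KO minus WT on the log2 scale; 20.0% of all genes were called in this test). S100a4 differed by -2.44 ± 0.29 (adjusted p = 3.61e-06; -0.38 in WT and -2.82 in KO) and Anxa3 by -1.40 ± 0.13 (adjusted p = 1.29e-07; -0.17 and -1.58). Snai2 differed by -1.05 ± 0.18 (adjusted p = 0.000215; 0.36 and -0.69), S100a11 by -0.79 ± 0.17 (adjusted p = 0.00174; -0.31 and -1.10) and Anxa1 by -0.73 ± 0.14 (adjusted p = 0.000815; 0.13 and -0.60). S100a10 differed by -0.69 ± 0.12 (adjusted p = 0.000378; -0.11 and -0.80). Cdh2 differed by -0.65 ± 0.15 (adjusted p = 0.00320; -0.94 and -1.59) and Anxa7 by -0.34 ± 0.10 (adjusted p = 0.0239; -0.096 and -0.44). The differences of Pkp4, at 0.57 ± 0.10 (adjusted p = 0.000393; -0.13 and 0.44), and Tjp1, at 0.30 ± 0.09 (adjusted p = 0.0319; -0.25 and 0.050), were positive. Leaving out 1 library ended the call of Anxa7 in 6 of 12 cases (-0.43 to -0.25 over all 12) and that of Tjp1 in 8 (0.23 to 0.35); Tjp1 was also not called by DESeq2 or with library totals. Without the first WT library of day 28 the S100a4 difference was -1.75.

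Palm3 moved in opposite directions in the lines in both intervals, in both libraries of each group. The difference in its change was -3.28 from day 1 to day 14 (1.14 in WT and -2.15 in KO) and 5.67 from day 14 to day 28 (-0.58 and 5.08). These differences were not tested, since Palm3 was chosen from these values.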

How the results depend on the processing

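Of 80 called differences of single related genes, between KO and WT or between the lines in the change over time, 61 kept direction and call in every setting tried. Anxa2 at day 28 was called lower in KO with all libraries (-0.25 ± 0.10, edgeR adjusted p = 0.047). Its difference turned to 0.013 without the first WT library of that day. With library totals, directions reversed for values near 0, which were Ubp1 (-0.021) and Palm (-0.022) at day 1 and Anxa5 at days 14 (-0.018) and 28 (-0.023). With no filter, those of Ubp1 (0.0040) and Anxa7 (0.0055) at day 28 reversed, again near 0. Leaving out 1 library, the ranges that crossed 0 were Pkp2 -0.098 to 0.081, Grhl1 -0.12 to 0.41, Tfcp2 -0.17 to 0.0073, Ubp1 -0.059 to 0.14, Pkp4 -0.076 to 0.0069, Ehf -0.69 to 0.0057 and Snai2 -0.018 to 0.36 at day 1, Grhl3 -0.10 to 0.17, Tfcp2 -0.020 to 0.13, Ubp1 -0.16 to 0.030, Anxa9 -0.54 to 0.22 and Jup -0.35 to 0.11 at day 14, and Palm3 -0.49 to 0.043, Ubp1 -0.066 to 0.067, Anxa2 -0.46 to 0.013, Anxa7 -0.081 to 0.089, Ehf -1.999 to 0.20 and S100a11 -0.35 to 0.047 at day 28.

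Related genes called higher at day 28 numbered 2 with library totals in place of 6; those higher in the difference in change numbered 1 with DESeq2 and 1 with library totals in place of 2. Leaving out 1 library gave 5 to 9 called mesenchymal genes at day 14. In the difference in change from day 1 to day 28 it gave 1691 to 3901 called genes (2761 with all libraries), 1 to 3 related genes higher and 4 to 9 lower. The cause was not tested. Same-numbered libraries deviated together little (15 pairs, r from -0.072 to 0.17, 1 above 0.1), so the numbers were not read as pairs. The highest r was that of WT and KO at day 28. With the replicate number as a block, 5521, 6785 and 5638 genes were called at days 1, 14 and 28, against 5544, 6842 and 5641 without it, and among the related genes named the call of Grhl1 at day 28 was the one lost and that of S100a11 at day 14 (0.30) the one gained. With 2 libraries a group and under 10 counts for several KO groups, counting limits Tfcp2l1, Palm3, Pkp2 and Perp most.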

Other observations

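The course of Tfcp2l1 and Palm3 in KO, below 1 CPM at days 1 and 14 and at or above 5 CPM at day 28, was shared by 10 of 13772 genes tested (0.0726%). Of these, 4 (0.0290%) were also at or above 5 CPM in WT at every day: Tfcp2l1, Palm3, Car6 and Trim66. Both levels were chosen after the values were seen, Palm3 in WT at day 1 (5.09 CPM) lies just inside, and no test is given. Hsd17b1, close to Tfcp2l1 in profile, met the KO condition (0.281, 0.364 and 5.54 CPM at days 1, 14 and 28). In WT it averaged 3.62, 7.93 and 15.5 CPM, so it fell outside by its day 1 level only. Car6, a secreted carbonic anhydrase, averaged 16.9, 67.5 and 125 CPM in WT at days 1, 14 and 28 and 0.733, 0.591 and 21.7 CPM in KO. Trim66, a chromatin reader of the tripartite motif family, averaged 10.1, 18.9 and 41.5 CPM in WT and 0.287, 0.398 and 5.59 CPM in KO.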
